A study of Mus musculus with 7 samples.

Results

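The NRF2 pathway genes described here are 10 genes of the response to oxidative stress: the transcription factor gene Nfe2l2, which encodes NRF2, its inhibitor Keap1, and the effector genes Slc7a11, Gclc, Gclm, Txnrd1, Srxn1, Nqo1, Hmox1 and Gsta4. They were taken by gene symbol from the deposited table of 54532 mouse genes, in which each symbol had 1 row. All 10 passed the filter on low counts that left 16308 genes for testing. Their rows were picked by gene symbol alone, but the members were chosen with earlier results of these data known.

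The study sequenced RNA from mouse motor cortex in 7 libraries: 4 labelled conditional knockout (cKO) and 3 labelled wild type (WT). All of them, WT included, had received a virus named GA100 in both lateral ventricles at postnatal day 0, and the tissue was taken 3 months later, after behavioural tests. The series title speaks of C9orf72 poly-GA mice, poly-GA being a repeat protein linked to motor neuron disease, and names TIA1, an RNA-binding protein of stress granules. No uninjected animals were analysed here, so the virus itself was not compared with its absence. The labels name neither the deleted exons nor the Cre driver of the cKO. Whether each library came from a separate mouse is not stated, and the p-values therefore reflect library-to-library spread, which may in part be technical.

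Libraries held 15181390 to 16403202 gene counts in cKO and 15213977 to 16463721 in WT. Tia1, read from the title as the targeted gene, had 81.4, 80.3, 72.7 and 81.9 CPM (counts scaled to library size) in the libraries labelled cKO, against 60.6, 95.8 and 68.9 CPM in WT, so a count over the whole gene did not separate the labels; cKO below stands for the library label. Its log2 fold change was 0.07 (edgeR adjusted p = 0.914). Ddx3y, on the Y chromosome, was at 0 counts in replicate 1 of both groups and at 1073 to 1386 elsewhere. Xist, on the X chromosome, had 19151 counts in cKO replicate 1, 15217 in WT replicate 1 and 0 to 8 elsewhere. By these counts replicate 1 of each group was female and the other libraries male. Sex was not a factor in the main fit. The library cKO replicate 3 stood apart: chi-square statistics per degree of freedom against the other 6 libraries ran from 16.6 to 23.9, while all pairs without it ran from 4.19 to 16.6.

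NRF2 is a transcription factor that KEAP1, a sensor protein with reactive cysteines, normally hands to a CUL3 ubiquitin ligase for destruction. Oxidants and electrophiles modify those cysteines, NRF2 then escapes, enters the nucleus with a small MAF partner and binds antioxidant response elements in genes for glutathione synthesis, thioredoxin recycling, quinone reduction and heme breakdown. In brain the response is known to be strongest in astrocytes and weak in mature neurons, and because NRF2 is controlled mainly at the protein level, its messenger RNA is known to be a poor measure of its activity. For this reason the effector transcripts are the usual readout.

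The promoter sequences below are shown because the element through which NRF2 acts is a short stretch of DNA that can be read directly. The core of the antioxidant response element, TGACNNNGC (N stands for any base), was searched on both strands in windows from 250 bases before to 50 bases after each gene start, taken from RefSeq (GRCm38.p6, the mm10 build). Windows were present for 7 of the 10 genes, the exceptions being Hmox1, Gclc and Gsta4. A match lay in the windows of 4 of these 7 genes (Nfe2l2, Srxn1, Gclm and Txnrd1), where 14.0% of 27025 gene symbols had at least 1 match. Each match is printed 5′ to 3′ on the strand of its gene, with 10 bases on either side and the match in capitals.
Nfe2l2, chr2:75704885-75704913, minus strand, match from 240 bases before the start: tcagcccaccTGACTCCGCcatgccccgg
Gclm, chr3:122245413-122245441, plus strand, match from 134 bases before the start, core on the opposite strand: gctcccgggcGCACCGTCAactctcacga
Txnrd1, chr10:82859104-82859132, plus strand, match from 92 bases before 1 of its 3 listed starts, core on the opposite strand: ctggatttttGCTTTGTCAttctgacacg
Srxn1, chr2:152105542-152105570, plus strand, match from 28 bases after the start, core on the opposite strand: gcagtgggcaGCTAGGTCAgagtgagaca

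Slc7a11, which is also known as a target of the amino acid stress factor ATF4, had no core match in its window. It held instead 2 matches to TGATGNAA, letters of the amino acid response element that ATF4 binds, a motif found in windows of 4.51% of gene symbols and of 1 of the 7 members with a window. The 2 matches lie on opposite strands, from 66 and from 47 bases before the start, and are in capitals in the 250 bases upstream of the gene. The 250 bases upstream of Nfe2l2 follow for comparison, with the antioxidant response element core in capitals near the far end. A match is a description of letters, and no binding was measured.
Slc7a11, chr3:50443614-50443863, minus strand: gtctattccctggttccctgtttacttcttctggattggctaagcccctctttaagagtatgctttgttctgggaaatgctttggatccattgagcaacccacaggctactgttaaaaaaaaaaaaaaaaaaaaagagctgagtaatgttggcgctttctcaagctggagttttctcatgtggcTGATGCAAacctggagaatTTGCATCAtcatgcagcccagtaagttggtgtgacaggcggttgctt
Nfe2l2, chr2:75704664-75704913, minus strand: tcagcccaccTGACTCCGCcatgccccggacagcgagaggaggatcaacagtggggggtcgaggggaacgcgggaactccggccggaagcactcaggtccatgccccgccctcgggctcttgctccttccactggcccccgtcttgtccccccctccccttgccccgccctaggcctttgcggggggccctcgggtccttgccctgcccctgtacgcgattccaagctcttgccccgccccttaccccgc

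Levels of the 10 genes were compared on the authors' FPKM values, which are per gene length. Srxn1 was the highest, with a mean of 33.9 FPKM over the 7 libraries, and its lowest library (30.7 FPKM) lay above the highest library of the next gene, Gclc (19.1 FPKM). Gclc (mean 17.0 FPKM), Gclm (13.5), Gsta4 (13.4), Keap1 (10.4) and Txnrd1 (9.43) followed, and each neighbouring pair in that order overlapped between libraries. Slc7a11 (mean 5.78 FPKM) and Nfe2l2 (5.34) formed a lower step, again with overlapping libraries. The inducible enzymes Hmox1 (mean 2.81 FPKM) and Nqo1 (2.09) were the lowest, both below every library of Nfe2l2, the lowest of which had 3.99 FPKM. The order of the 10 genes was thus set in 4 steps.

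**Figure D1:**
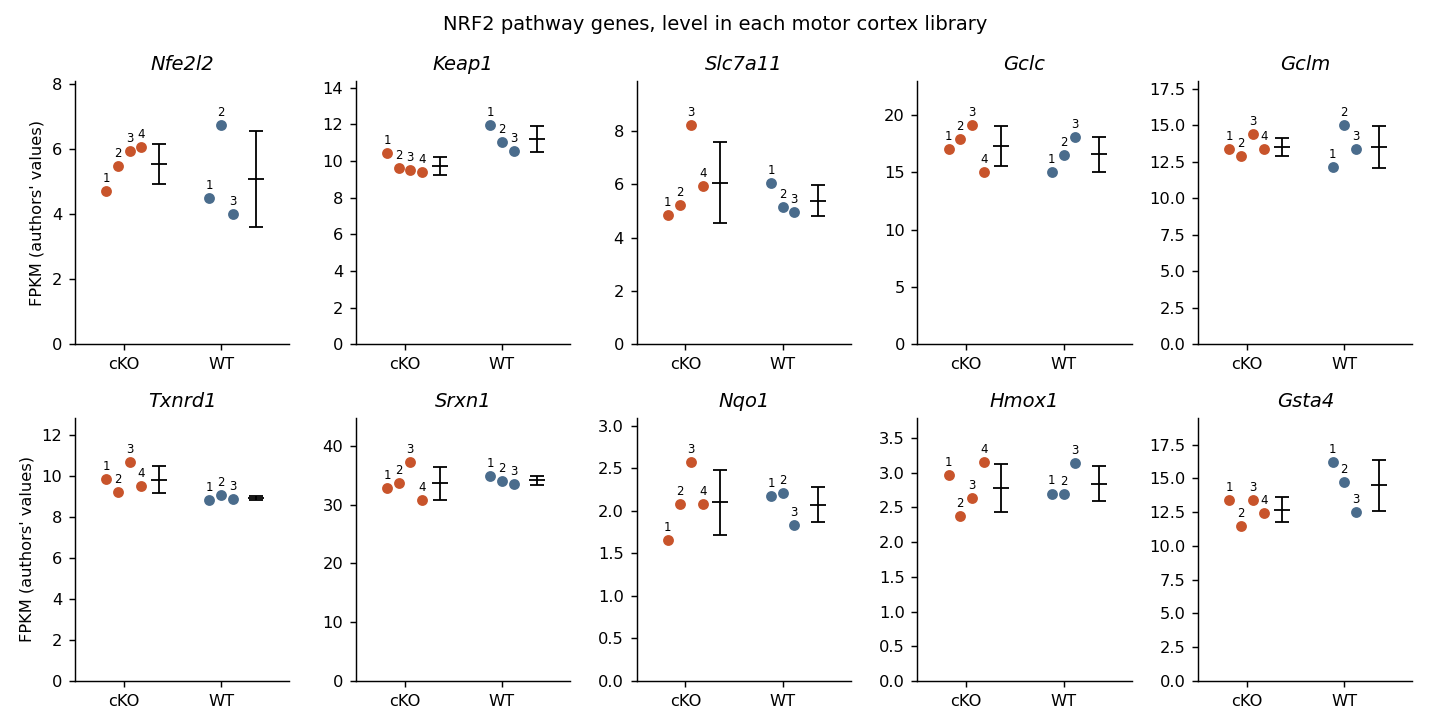
Level of each gene in FPKM (authors' values, vertical axis from 0) in the 4 cKO and 3 WT libraries; points are libraries, numbers are replicates, and the bar beside each group is the mean ± SD. The groups overlap except for Txnrd1, where the 4 cKO points lie above the 3 WT points, and Keap1, where they lie below (at most 10.46 FPKM in cKO and at least 10.56 FPKM in WT); on the CPM scale Keap1 overlaps. In the same panels cKO replicate 3 is the highest point for Slc7a11, Gclc, Txnrd1, Srxn1 and Nqo1.

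None of the 10 genes differed between genotypes at an adjusted p under 0.05 in edgeR's quasi-likelihood test, the smallest adjusted p being 0.694 and the largest 0.991. The same test called 0 of all 16308 genes (0.0%). DESeq2 called 0 of the 10 (0.0245% of all genes) and limma-voom 0 (0.0% of all genes). At an unadjusted p under 0.05 edgeR listed 1 of the 10, Keap1, lower in cKO, where the background was 7.14% of all genes tested (2.91% lower and 4.22% higher in cKO). DESeq2 and limma-voom each listed 1 of the 10 as well, beside 1048 and 1106 of all 16308 genes. Log2 fold changes, cKO minus WT here and throughout, were positive for 6 and negative for 4 of the 10, against 51.8% positive among all genes, with a median of 0.01 for the 10 and 0.01 for all genes. The 95% intervals of the 10 genes together ran from -0.45 to 0.51, which is from 0.731-fold to 1.42-fold, so larger changes in either direction lay outside the intervals of every gene. In bulk tissue, fewer cells of a type and less RNA per cell cannot be told apart.

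**Figure D2:**
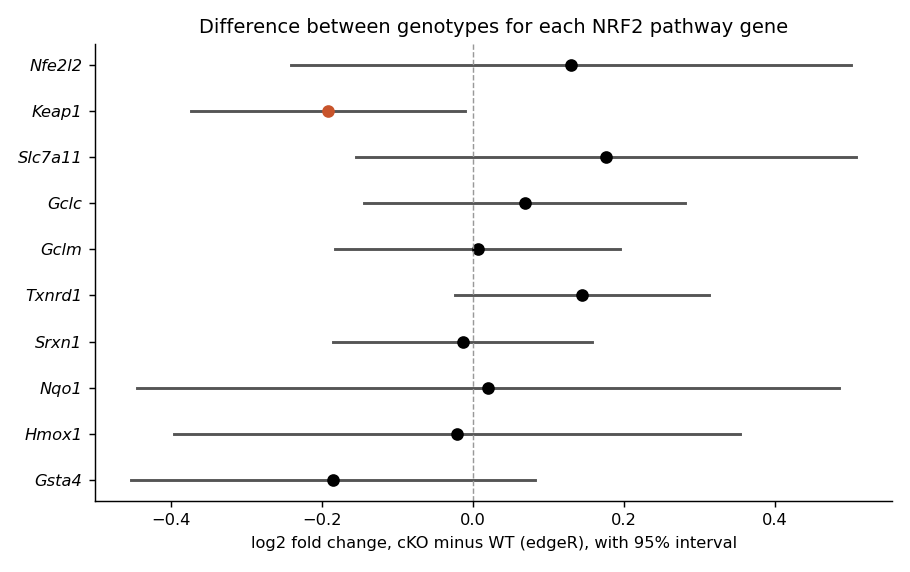
Log2 fold change, cKO minus WT, from edgeR for each gene (points) with its 95% interval (lines). The interval of Keap1 (orange), from -0.37 to -0.01, is the only 1 of the 10 that does not cross 0, and Keap1 had an adjusted p of 0.694.

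Nfe2l2 (ENSMUSG00000015839, chromosome 2, 75675513 to 75704641, mm10, minus strand, protein-coding), the gene of the transcription factor itself, had 18.03, 20.95, 22.46 and 23.12 CPM in cKO libraries 1 to 4, against 17.01, 25.75 and 15.12 CPM in WT libraries 1 to 3. The WT libraries held both the highest and the lowest value of the 7, so the cKO range lay inside the WT range. Means were 21.1 ± 2.27 CPM in cKO (SD, n = 4) and 19.3 ± 5.67 CPM in WT (SD, n = 3). Its log2 fold change was 0.13 ± 0.17 (SE), with an edgeR adjusted p of 0.886, and a two-sided exact permutation test over libraries gave p = 0.514, where the smallest possible p is 0.0571. The value depended on each WT library: without WT replicate 2 the log2 fold change was 0.38 (edgeR unadjusted p = 0.0206, adjusted p = 0.506). Without WT replicate 1 it was 0.04, and without WT replicate 3 it was -0.02. WT replicate 2 was also the library with the highest Tia1.

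Keap1 (ENSMUSG00000003308, chromosome 9, 21229730 to 21239361, minus strand), the inhibitor that binds NRF2, had 49.7, 45.4, 44.5 and 44.4 CPM in cKO, against 56.0, 52.1 and 49.5 CPM in WT. Of the 4 cKO libraries, 3 lay below all WT libraries, and cKO replicate 1 overlapped the lowest WT library by a narrow margin; on the authors' FPKM scale the groups stood just apart, with 9.38 to 10.46 FPKM in cKO and 10.56 to 11.97 FPKM in WT. Its means were 46.0 ± 2.50 CPM in cKO (SD, n = 4) and 52.6 ± 3.25 CPM in WT (SD, n = 3), a log2 fold change of -0.19 ± 0.08 (SE). The edgeR unadjusted p was 0.0401 and the adjusted p 0.694, and by the two-sided exact permutation test p = 0.114. With the replicate number as a block, the edgeR unadjusted p was 0.0693 and the adjusted p 0.686, so Keap1 was no longer listed. In that setting cKO replicate 4, which has no WT library of its number, had no weight in the genotype difference. With cKO replicate 4 left out and no block, the edgeR unadjusted p of Keap1 was 0.0893 and the adjusted p 0.891. Without both libraries numbered 1, the female ones, its log2 fold change was -0.19 (edgeR unadjusted p = 0.0814, adjusted p = 0.9325). The sign was negative in each of the 22 alternative settings, with values between -0.24 and -0.13, and the smallest adjusted p among them was 0.476. An antisense gene inside the locus, Gm16754, had 5 to 18 counts per library, while Keap1 had 658 to 915.

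Levels of cell type markers differed between libraries as well. No marker was called in the lists given here, but neither was any of the 16308 genes tested. At an edgeR unadjusted p under 0.05, 4 of 10 excitatory neuron markers were lower and 1 higher in cKO. In the same test 1 of 10 microglia markers was lower and 4 of 10 oligodendrocyte markers were higher. Also higher were 3 of 6 choroid plexus, 2 of 10 astrocyte, 1 of 10 inhibitory neuron and 1 of 9 ependymal markers. Of 10 endothelial markers 1 was higher and 1 lower, and the other lists had none. Among all genes tested 2.91% were lower and 4.22% higher. All 6 choroid plexus markers tested had positive log2 fold changes (median 0.56). Choroid plexus sums were 279.0 to 546.2 CPM in cKO, highest in cKO replicate 4, and 249.9 to 294.9 CPM in WT. The summed CPM of 10 excitatory neuron markers, among them Slc17a7 and Camk2a, was 5198 to 6294 in cKO and 6480 to 7059 in WT, and none of the 10 was at 0. Of these markers 9 had log2 fold changes below 0 and 1 above 0 (smallest edgeR adjusted p = 0.680), and on their mean log2 level the groups overlapped. Across the 7 libraries Keap1 had a Pearson r of 0.792 with the mean log2 level of these markers (exact permutation p = 0.0411, adjusted p = 0.465 over 110 relations) and a Spearman rho of 0.643 (exact permutation p = 0.139, adjusted p = 0.728). The r was 0.936 without the 2 libraries farthest from the median of the markers. Microglia markers, none of 10 at 0, summed to 327.9 to 375.1 CPM in cKO and 356.0 to 432.2 CPM in WT, and Keap1 had r = 0.805 with them (exact permutation p = 0.0246, adjusted p = 0.465; Spearman rho = 0.643, exact permutation p = 0.139, adjusted p = 0.728), or 0.559 without the 2 farthest libraries. Oligodendrocyte markers, none of 10 at 0, summed to 4198 to 8331 CPM in cKO and 3860 to 5898 CPM in WT, with all 10 log2 fold changes above 0 (median 0.39) and none called. In each group replicate 1, the female library, had the highest Keap1 and the highest microglia sum. The part of cell type content or of sex in the Keap1 level was not tested. On FPKM, the ratio of Nfe2l2 to Keap1, computed as a description after the values were seen, was 0.449, 0.570, 0.624 and 0.644 in cKO and 0.376, 0.611 and 0.378 in WT, so the groups overlapped.

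Slc7a11 (ENSMUSG00000027737, chromosome 3, 49892526 to 50443614, minus strand) encodes xCT, the antiporter that brings in cystine for glutathione synthesis and releases glutamate. It had 68.4, 73.5, 114.3 and 83.3 CPM in cKO, against 83.9, 72.1 and 69.2 CPM in WT. The value of cKO replicate 3 stood above all others, while the remaining 3 cKO libraries lay within or just below the WT range. Means were 84.9 ± 20.6 CPM in cKO (SD, n = 4) and 75.1 ± 7.78 CPM in WT (SD, n = 3), and the log2 fold change was 0.18 ± 0.15 (SE), with an edgeR adjusted p of 0.817. Without cKO replicate 3 it was -0.01. This was the largest log2 fold change of the 10 genes in size among those above 0, and it rested on that library.

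Slc7a11 was set beside markers of the cell types that the dissection could hold, and no relation passed adjustment. For meningeal fibroblasts, the cells of the membranes over the cortex, the summed CPM of 10 such markers, including Dcn, Col1a1 and Slc6a13, was 64.1 to 117.5 in cKO and 65.2 to 114.8 in WT, with the highest sum in cKO replicate 3, the next in WT replicate 1, and no marker at 0. Across the 7 libraries the Pearson r of Slc7a11 with the mean log2 level of these markers was 0.851 (exact permutation p = 0.00516, adjusted p = 0.284 over 110 relations) and the Spearman rho was 0.893 (exact permutation p = 0.0123, adjusted p = 0.451). Without the 2 libraries farthest from the median of the markers the r was 0.945. WT replicate 1, with nearly the marker sum of cKO replicate 3, had about the Slc7a11 level of cKO replicate 4, whose sum was 81.3. Slc7a11 had r = 0.805 with inhibitory neuron markers (exact permutation p = 0.0385, adjusted p = 0.465; Spearman rho = 0.464, exact permutation p = 0.302, adjusted p = 0.875), or 0.27 without the 2 farthest libraries. With macrophage markers it had r = 0.734 (exact permutation p = 0.0450, adjusted p = 0.465; Spearman rho = 0.714, exact permutation p = 0.0881, adjusted p = 0.728), or 0.881 without the 2 farthest. With both cKO replicate 3 and WT replicate 1 left out, the log2 fold change of Slc7a11 was 0.09. The part of these cell types in the Slc7a11 level was not tested.

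**Figure D3:**
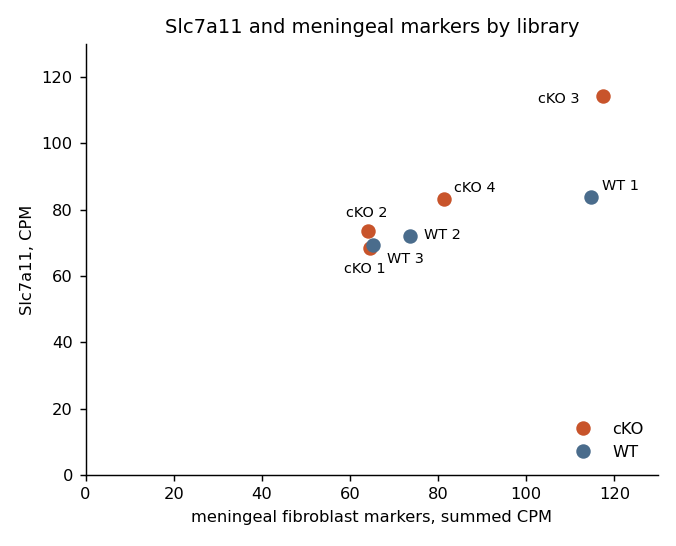
Slc7a11 (CPM, vertical axis) against the summed CPM of 10 meningeal fibroblast markers (horizontal axis) in the 4 cKO and 3 WT libraries. Slc7a11 was 114.3 CPM in cKO replicate 3, where the marker sum was 117.5, and 83.9 CPM in WT replicate 1, where the sum was 114.8; the other 5 libraries have lower sums and 68.4 to 83.3 CPM.

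The 2 subunits of glutamate-cysteine ligase, which makes the rate-limiting step of glutathione synthesis, showed little difference between genotypes. Gclc (ENSMUSG00000032350, chromosome 9, 77754535 to 77794485, plus strand), the catalytic subunit, had 64.7, 68.1, 71.8 and 57.0 CPM in cKO, against 56.5, 62.5 and 68.2 CPM in WT, with overlapping groups. Its log2 fold change was 0.07 ± 0.10 (SE), with an edgeR adjusted p of 0.901. Gclm (ENSMUSG00000028124, chromosome 3, 122245557 to 122270732, plus strand), the modifier subunit, had 1410, 1234, 1337 and 1352 raw counts in cKO, against 1246, 1542 and 1273 in WT. On the CPM scale, where it averaged 85.6 ± 3.51 in cKO (SD, n = 4) and 85.2 ± 9.54 in WT (SD, n = 3), all 4 cKO libraries lay inside the WT range, and the log2 fold change was 0.01 ± 0.09 (SE; 95% interval -0.18 to 0.20), a value whose sign turned under library size scaling and upper quartile scaling. A gene on the opposite strand of the Gclm locus, Gm17494, had 37 to 60 counts per library. The ratio of Gclc to Gclm in FPKM averaged 1.28 ± 0.112 in cKO (SD, n = 4) and 1.23 ± 0.129 in WT (SD, n = 3).

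Txnrd1 (ENSMUSG00000020250, chromosome 10, 82833951 to 82897712, plus strand), the cytosolic thioredoxin reductase that keeps thioredoxin reduced, was the gene of the 10 whose groups did not overlap in CPM. It had 70.6, 65.8, 75.6 and 67.7 CPM in cKO, against 62.4, 64.5 and 62.9 CPM in WT, so each cKO library lay above each WT library, the closest pair by about 1 CPM. Such a separation, in this direction, was found for 3.97% of all genes tested, and for 7.38% in either direction. The means were 69.9 ± 4.23 CPM in cKO (SD, n = 4) and 63.3 ± 1.14 CPM in WT (SD, n = 3), a log2 fold change of 0.14 ± 0.08 (SE) with a 95% interval from -0.02 to 0.31. Its edgeR unadjusted p was 0.0860 and its adjusted p 0.715; by the two-sided exact permutation test p = 0.0571, the lowest value possible with 4 and 3 libraries. The sign was positive in all 22 alternative settings, between 0.10 and 0.16, and the value was 0.10 without cKO replicate 3. Summed inhibitory neuron markers, none of the 10 at 0, were 989.1 to 1370 CPM in cKO and 887.0 to 990.5 CPM in WT, and Txnrd1 had r = 0.800 with them (exact permutation p = 0.0314, adjusted p = 0.465; Spearman rho = 0.643, exact permutation p = 0.139, adjusted p = 0.728), or 0.497 without the 2 farthest libraries. With excitatory neuron markers Txnrd1 had r = -0.73 (exact permutation p = 0.0631, adjusted p = 0.495; Spearman rho = -0.71, exact permutation p = 0.0881, adjusted p = 0.728), or -0.47 without the 2 farthest. The part of these cells in the Txnrd1 level was not tested.

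Srxn1 (ENSMUSG00000032802, chromosome 2, 152105516 to 152111376, plus strand) encodes sulfiredoxin, which repairs overoxidised peroxiredoxins. It had 93.6, 95.7, 105.0 and 87.3 CPM in cKO, against 98.1, 96.6 and 94.3 CPM in WT. The cKO libraries spread on both sides of the narrow WT range. With means of 95.4 ± 7.30 CPM in cKO (SD, n = 4) and 96.3 ± 1.91 CPM in WT (SD, n = 3), its log2 fold change was -0.01 ± 0.08 (SE), and the 95% interval from -0.19 to 0.16 was, with that of Txnrd1, among the narrowest of the 10.

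Nqo1 and Hmox1 are the classical inducible targets, a quinone reductase and the heme-degrading heme oxygenase, and both were near the lower end of the measured range. Nqo1 (ENSMUSG00000003849, chromosome 8, 107388225 to 107403206, minus strand) had 43, 49, 59 and 52 raw counts in cKO, against 55, 56 and 43 in WT. On the CPM scale this was 3.28 ± 0.571 in cKO (SD, n = 4) and 3.22 ± 0.334 in WT (SD, n = 3), a log2 fold change of 0.02 ± 0.21 (SE). Hmox1 (ENSMUSG00000005413, chromosome 8, 75093621 to 75100589, plus strand) had 87, 63, 68 and 89 raw counts in cKO, against 77, 77 and 83 in WT. Its level was 4.90 ± 0.625 CPM in cKO (SD, n = 4) and 4.98 ± 0.432 CPM in WT (SD, n = 3), with a log2 fold change of -0.02 ± 0.17 (SE). The groups overlapped for both genes.

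For these 2 genes counting error was large beside the spread between libraries. Over the 7 libraries the coefficient of variation of CPM was 13.8% for Nqo1 and 10.3% for Hmox1, about what counting alone gives at their mean counts (14.0% and 11.3%). The 95% intervals of the log2 fold change were -0.45 to 0.49 for Nqo1 and -0.40 to 0.35 for Hmox1. They give the differences compatible with these libraries and are not limits of detection. For Slc7a11 and Nfe2l2 the coefficients of variation, 19.95% and 18.55%, stood beside counting errors of 2.81% and 5.59%. For Srxn1 it was 5.54%, with a counting error of 2.58%.

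Gsta4 (ENSMUSG00000032348, chromosome 9, 78182774 to 78209349, plus strand) encodes a glutathione transferase that conjugates hydroxynonenal, a product of lipid peroxidation. It had 17.2, 14.6, 16.9 and 15.9 CPM in cKO, against 20.5, 18.8 and 15.8 CPM in WT. WT replicates 1 and 2 were above all cKO libraries, and WT replicate 3 was within the cKO range. Means were 16.1 ± 1.16 CPM in cKO (SD, n = 4) and 18.4 ± 2.39 CPM in WT (SD, n = 3). The log2 fold change of -0.19 ± 0.12 (SE) had an edgeR adjusted p of 0.760 and an exact two-sided permutation p of 0.229. It stayed negative in all 22 alternative settings, from -0.28 without WT replicate 3 to -0.10 without WT replicate 1.

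Between libraries the 10 genes did not vary as a block. Of the 45 pairs, 27 had a positive Pearson r of log2 CPM over the 7 libraries, and r ran from -0.64 to 0.82. The highest were Nqo1 with Slc7a11 (r = 0.819, exact permutation p = 0.0218; Spearman rho = 0.750, exact permutation p = 0.0663) and Keap1 with Gsta4 (r = 0.819, exact permutation p = 0.0248; Spearman rho = 0.714, exact permutation p = 0.0881). After adjustment over the 45 pairs the p of both r was 0.558 and that of both rho 0.9. Without the 2 libraries farthest from the median of the first gene, the r were 0.489 for Nqo1 with Slc7a11 and 0.614 for Keap1 with Gsta4. Keap1 and Gsta4 were both highest within each group in replicate 1, the female library. Among the effector genes, Nfe2l2 had its highest r with Gclm, r = 0.678 (exact permutation p = 0.0927, adjusted p = 0.851; Spearman rho = 0.679, exact permutation p = 0.110, adjusted p = 0.9), and r = 0.675 without the 2 farthest libraries. The r of Nfe2l2 was 0.604 with Nqo1, 0.374 with Txnrd1 and 0.323 with Slc7a11. It was 0.035 with Srxn1, -0.03 with Gsta4, -0.05 with Gclc and -0.30 with Hmox1.

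Each of the 7 libraries held the highest or the lowest value of at least 1 of the 10 genes. In cKO replicate 3, 5 of the 10 genes (Slc7a11, Gclc, Txnrd1, Srxn1 and Nqo1) had their highest value, and none had its lowest. The median deviation of the 10 genes from their means was 0.15 (log2) there and between -0.06 and 0.05 in the other 6 libraries. WT replicate 2 had the highest Nfe2l2 and Gclm, and WT replicate 1 the highest Keap1 and Gsta4 along with the lowest Gclc, Gclm and Txnrd1. The remaining lowest values were in cKO replicate 1 (Nqo1 and Slc7a11), cKO replicate 2 (Hmox1 and Gsta4), cKO replicate 4 (Keap1 and Srxn1) and WT replicate 3 (Nfe2l2), and the highest Hmox1 was in cKO replicate 4. Without cKO replicate 3, 0 of the 10 genes were called and the median log2 fold change was -0.02.

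**Figure D4:**
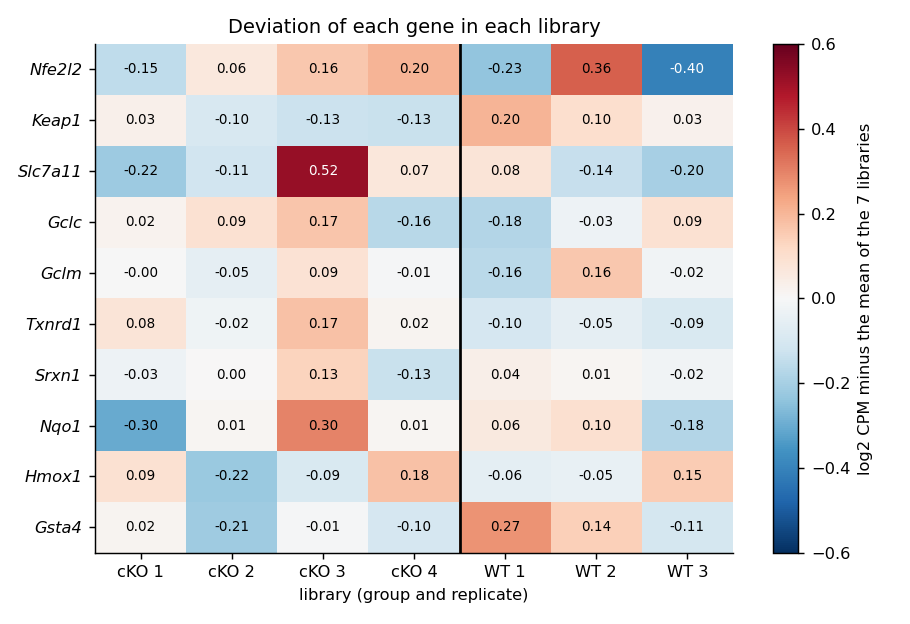
Log2 CPM of each gene (rows) in each library (columns, 4 cKO left of the line and 3 WT right of it) minus the average of that gene across all 7; red is above and blue below the mean. Slc7a11 reaches 0.52 in cKO replicate 3, and Nfe2l2 spans -0.40 to 0.36 within WT.

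Beyond the 10, 94 other symbols of pathway genes and related redox and iron genes were listed by role. Of these, 93 had a row, and 87 passed the filter and were tested. None was called at an adjusted p under 0.05 in edgeR (0.0% of all genes, as above), DESeq2 or limma-voom; 6 of the 87 had an unadjusted edgeR p under 0.05, which is 6.90% beside 7.14% of all genes. Of these 6, 2 were higher and 4 lower in cKO. Of the 87, 58 were below 0, with a median of -0.05; of all 16308 genes 7863 were below 0, with a median of 0.01. This difference in share was not tested. The medians of the 7 role lists lay between -0.07 (glutathione genes) and -0.03 (regulators, superoxide and peroxide enzymes, and detoxification genes).

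**Figure D5:**
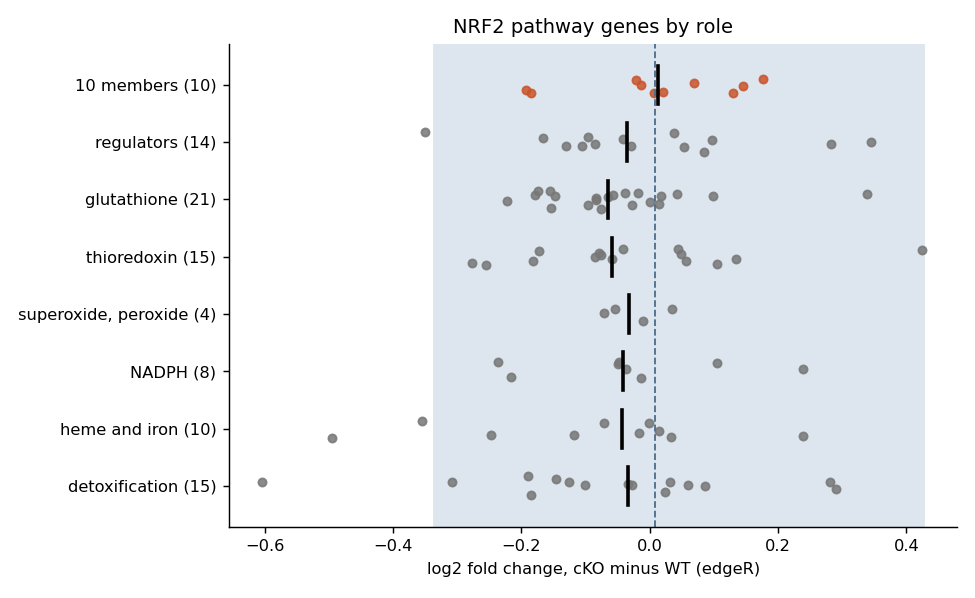
Log2 fold change, cKO minus WT, of each tested gene (points) by role, with the number of genes in brackets and the list median as a black bar. The shaded band holds the middle 90% of all genes tested (-0.34 to 0.43), the dashed line is the median of all genes, and the 10 NRF2 pathway genes (orange) lie between -0.19 and 0.18.

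Among the 14 regulators tested, 6 were above and 8 below 0. Bach1, the repressor that competes with NRF2 for its sites, had 21.7, 20.5, 28.3 and 23.25 CPM in cKO, against 16.95, 19.45 and 18.95 CPM in WT, so the groups did not overlap. Its log2 fold change was 0.34 ± 0.13 (SE; edgeR adjusted p = 0.694). Dpp3, a peptidase known to bind KEAP1, had -0.35 ± 0.13 (adjusted p = 0.694), with 21.4 ± 3.40 CPM in cKO (SD, n = 4) and 27.3 ± 2.59 CPM in WT (SD, n = 3). Sqstm1, the autophagy receptor p62 that also binds KEAP1, was the most abundant regulator and had 357 ± 17.2 CPM in cKO and 401 ± 34.0 CPM in WT, a log2 fold change of -0.17 ± 0.08 (adjusted p = 0.704).

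Of 21 glutathione genes tested, 16 had negative values. Abcc4, an export pump, had a log2 fold change of -0.22 ± 0.14 (SE), the microsomal transferase Mgst3 had -0.18 ± 0.13, and Gstm1, the most abundant of the list, had -0.06 ± 0.11, each with an edgeR adjusted p above that of Keap1. With 1 library left out, Abcc4 had -0.14 without WT replicate 2 and -0.35 without WT replicate 3, and Mgst3 had -0.11 without cKO replicate 2, -0.30 without WT replicate 2 and -0.09 without WT replicate 3. In the thioredoxin list 9 of 15 were negative. Msra, which repairs oxidised methionine, had 23.0, 18.6, 18.3 and 19.5 CPM in cKO and 24.8, 23.6 and 23.7 CPM in WT, groups that did not overlap, with a log2 fold change of -0.28 ± 0.11 (SE; adjusted p = 0.694). Txnip, the inhibitor of thioredoxin, had 0.42 ± 0.20 (adjusted p = 0.700), but 0.24 without cKO replicate 4 and 0.69 without WT replicate 2. Selenow, a small selenoprotein, had -0.06 ± 0.10.

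The superoxide and peroxide enzymes were close to 0: Cat, catalase, had a log2 fold change of -0.07 ± 0.09 (SE), the mitochondrial Sod2 0.03 ± 0.08 and the cytosolic Sod1 -0.01 ± 0.09. Among 8 genes of NADPH supply, Idh1, the cytosolic isocitrate dehydrogenase, had 0.24 ± 0.12, with 31.29, 31.46, 43.49 and 32.96 CPM in cKO against 27.7, 30.2 and 30.5 CPM in WT. Its groups did not overlap, the edgeR adjusted p was 0.715, and the value was 0.11 without cKO replicate 3. The mitochondrial Idh2 had -0.24 ± 0.12 and Taldo1, transaldolase, -0.05 ± 0.09.

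Heme and iron genes had 7 negative values of 10. Tfrc, the transferrin receptor, had 116.9, 82.7, 114.3 and 81.8 CPM in cKO, against 115.4, 129.5 and 134.9 CPM in WT, with overlap in cKO replicate 1. Its log2 fold change was -0.36 ± 0.13 (SE; edgeR adjusted p = 0.694). Blvrb, a biliverdin reductase, had -0.49 ± 0.20 (adjusted p = 0.694) at 3.79 ± 0.812 CPM in cKO (SD, n = 4) and 5.36 ± 0.768 CPM in WT (SD, n = 3). Fth1, the ferritin heavy chain, had 0.01 ± 0.11. In the detoxification list, Akr1b10, an aldo-keto reductase, had 10.3, 9.58, 10.8 and 11.2 CPM in cKO and 8.81, 8.15 and 8.85 CPM in WT, a log2 fold change of 0.28 ± 0.13 (SE; adjusted p = 0.696) with groups that did not overlap. Aldh1a1, an aldehyde dehydrogenase, had 0.29 ± 0.13 (adjusted p = 0.696) and Akr1a1 -0.10 ± 0.08. Groups did not overlap for 4 of the 87 genes (Bach1, Msra, Idh1 and Akr1b10), 4.598% beside 7.38% of all genes; 3 were higher in cKO (3.97% of all genes) and 1, Msra, lower (3.42%).

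The genes whose profiles over the 7 libraries were most like those of 4 of the members, by Pearson r of log2 CPM among the other 16307 genes tested, are given as a description. For Nfe2l2 they were Tead1 (0.985), Dapp1 (0.985) and C030037D09Rik (0.979), for Keap1 Cotl1 (0.990), Cndp2 (0.990) and Tmem234 (0.977). For Hmox1 they were Gm3724 (0.969), Hhat (0.954) and Trp53i13 (0.951), and for Slc7a11 Sowahc (0.983), Ablim3 (0.979) and Gm10557 (0.978). The points share libraries, depth and dissection.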

How the data were processed

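Per the file headers, the deposited tables hold raw counts per gene, not normalized, and FPKM values (per gene length and library size) computed by the authors, for 7 libraries. The submitters' processing notes list mm10 and the tools featureCounts (1.5.0-p3) and DESeq2 (1.20.0). For the aligner, annotation release and strand setting, the sources used here give nothing, so genes that overlap on opposite strands cannot be told apart. Counts were fitted over all genes with edgeR 4.0.16 in R 4.3.3 (TMM factors, default filterByExpr, quasi-likelihood F test, genotype as the factor) with Benjamini-Hochberg adjustment over the 16308 genes tested. CPM use TMM-scaled library sizes; log2 CPM use a prior count of 2. Exact two-sided permutation tests used SciPy 1.17.1, and figures matplotlib 3.10.9. The edgeR step was tested on simulated data. Alternatives covered scaling, filters, DESeq2 1.42.0 without independent filtering, limma 3.58.1 on counts (voom) and on log2(FPKM + 1) and log2(FPKM + 0.1), and left-out libraries.

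The members and lists were chosen with earlier results of these data known. For each role list the rule named the 2 genes with the smallest p and the 1 with the highest FPKM; for Nfe2l2, Keap1, Hmox1 and Slc7a11 the 3 nearest profiles. Deviations from group means correlated at 0.110, 0.128 and 0.122 for libraries with the same replicate number, each above the 0.1 that the rule for pairs asked. Libraries with unequal numbers reached 0.210, so these correlations do not show that equal numbers are pairs. The main fit was therefore unpaired, and the replicate number entered only as a block in 1 alternative setting. Marker lists of 11 cell types were used for summed levels and relations.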

Additional observations from a re-analysis of the deposited data

Results flagged for a closer look

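Among the 31 genes described with values, 1 had a cKO library far from the other cKO libraries. Idh1 had 43.5 CPM in cKO replicate 3, while the other 3 cKO libraries had 31.29 to 32.96 CPM; the gap to the nearest was 0.863 of the whole range, above Dixon's 95% critical value for 4 samples. Chance flags about 1 in 20 groups, and groups of 3, such as WT, were not examined.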

How the results depend on the processing

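Each result was recomputed under 22 alternatives. The number of NRF2 pathway genes called was 0 in all of them, and their median log2 fold change lay between -0.06 and 0.06. Over all genes, edgeR called 0, against 198 with no low count filter, 4 with DESeq2, 3 on log2(FPKM + 1) with no filter, 2 with the replicate block, 1 without WT 1 and cKO 3 together, 1 without cKO 3 and cKO 4 together, and 0 to 3 when 1 library was left out (3 without WT replicate 2, 1 without WT replicate 1 and 1 without cKO replicate 4); the cause was not tested. Among the 94 other symbols listed by role, 92 were tested with no low count filter and 1 was called (Tfrc, -0.36, edgeR adjusted p = 0.0279). With the replicate block none of the NRF2 pathway genes was called, and Keap1 lost its unadjusted p under the threshold (edgeR unadjusted p 0.0693 and adjusted p 0.686 with the block, unadjusted p 0.0401 and adjusted p 0.694 without it). The block also took cKO replicate 4, which has no WT library of its number, out of the genotype difference.

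Some log2 fold changes, none of them called, changed sign, among them Slc7a11 (0.18 with all libraries) and Nfe2l2 (0.13). With upper quartile factors, log2 fold changes were -0.00302 for Nqo1, -0.0153 for Gclm and -0.00549 for Fth1. With library size only, log2 fold changes were -0.00249 for Gclm. With no low count filter, log2 fold changes were -6.68e-06 for Gclm. With a CPM of at least 1 in 3 libraries, log2 fold changes were -0.0013 for Gclm. With the replicate block, log2 fold changes were 0.0246 for Srxn1 and 0.00343 for Sod1. Without both libraries numbered 1, log2 fold changes were -0.0663 for Gclm, 0.00626 for Srxn1, -0.0173 for Sod2, 0.0055 for Sod1 and -0.103 for Fth1. Without WT 1 and cKO 3 together, log2 fold changes were -0.0568 for Nqo1, -0.046 for Gclc, -0.0957 for Gclm, 0.018 for Selenow, -0.0492 for Sod2 and 0.0405 for Sod1. Without cKO 3 and cKO 4 together, log2 fold changes were -0.148 for Nqo1, -0.0329 for Gclm, -0.0876 for Slc7a11 and 0.0286 for Taldo1. Leaving out 1 library in turn gave -0.0169 to 0.384 for Nfe2l2, -0.096 to 0.109 for Nqo1, -0.0944 to 0.0519 for Hmox1, -0.00288 to 0.136 for Gclc, -0.0719 to 0.0835 for Gclm, -0.0705 to 0.0200 for Srxn1, -0.00827 to 0.259 for Slc7a11, -0.139 to 0.064 for Gstm1, -0.127 to 0.0152 for Selenow, -0.12 to 0.0164 for Cat, -0.0248 to 0.076 for Sod2, -0.0937 to 0.0452 for Sod1, -0.119 to 0.00152 for Taldo1 and -0.0627 to 0.0865 for Fth1. Of the 31 genes described, 17 kept their sign in all alternatives. Of the 10 genes, Nqo1 and Hmox1 had the lowest counts, 357 and 544 over the 7 libraries.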

Other observations

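Other relations of the 10 genes with cell type markers over the 7 libraries are given as values. Nfe2l2 had a Spearman rho of 0.821 with choroid plexus markers (exact permutation p = 0.0341, adjusted p = 0.728 over 110 relations). Its Pearson r with them was 0.538 (exact permutation p = 0.209, adjusted p = 0.763). Srxn1 had a Pearson r of -0.87 with ependymal markers (exact permutation p = 0.00437, adjusted p = 0.284 over 110 relations; Spearman rho = -0.93, exact permutation p = 0.00675, adjusted p = 0.371), and -0.87 without the 2 libraries farthest from the median of the markers. Gsta4 had r = -0.86 with erythrocyte markers (exact permutation p = 0.0145, adjusted p = 0.465; Spearman rho = -0.96, exact permutation p = 0.00278, adjusted p = 0.306), and -0.80 without the 2 farthest libraries. Gsta4 also had r = 0.834 with microglia markers (exact permutation p = 0.0210), -0.76 with oligodendrocyte markers (exact permutation p = 0.0474) and 0.755 with endothelial markers (exact permutation p = 0.0480), each with an adjusted p of 0.465; their Spearman rho were 0.643, -0.61 and 0.679 (exact permutation p = 0.139, 0.167 and 0.110; adjusted p = 0.728, 0.810 and 0.728), and without the 2 farthest libraries r was 0.123, -0.21 and -0.17. In each group replicate 1, the female library, had the highest Gsta4 and the highest microglia sum. The part of sex in these relations was not tested. Of the 110 relations, 11 had an unadjusted Pearson p under 0.05.

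Summed astrocyte markers, from the cells in which NRF2 is known to be most active, ran from 5677 to 6453 CPM in cKO and from 5637 to 6329 CPM in WT over 10 markers, so the sums overlapped. Of the 10 log2 fold changes 6 were above 0 and 4 below 0, with a median of 0.01. At an edgeR unadjusted p under 0.05, 2 of 10 were higher in cKO and 0 lower, beside 4.22% and 2.91% of all genes. The groups did not overlap for 2 markers higher in cKO and 1 lower, beside 3.97% and 3.42% of all genes.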
